A study of Mus musculus with 8 samples.

Results

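Transcript levels of 10 genes of the structural maintenance of chromosomes (SMC) complexes were examined in mouse bone marrow progenitors. Smc1a, Smc3, Rad21, Stag1, Stag2 and Nipbl encode cohesin subunits or its loader, Smc2 and Smc4 the condensin core, and Smc5 and Smc6 the core of the SMC5/6 complex. The set was proposed with earlier results of these data known, so its counts are descriptions; within it, every probe set annotated to a single one of these symbols was taken. That gave 37 probe sets for 10 of the 18193 genes with such a probe set. Of these, 35 were tested because at least 2 arrays read them at 50 or more, among them at least 2 for each gene. One probe set each of Nipbl (1443992_at) and Smc6 (1460069_at) stayed under 50 on every array. Each gene was read from the probe set brightest on average, which reached 50 on all 8 arrays for all 10 genes.

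The cells were sorted common myeloid progenitors (CMP), which can still form red cell, platelet and myeloid lineages, and granulocyte-monocyte progenitors (GMP), their more restricted descendants. The mice were male, of a background labelled mainly C576BL/6, and their age was not stated in the sources used here. The G0 group was TERTER/+ and labelled normal, and the G4/G5 group was TERTER/ER of a late generation. TERTER is telomerase reverse transcriptase fused to an estrogen receptor domain, which is inactive unless a ligand is given, so homozygotes lose telomere length over generations. All mice thus carry the allele, G0 mice beside a normal copy and G4/G5 mice without one. Each of the 4 groups (G0 CMP, G4/G5 CMP, G0 GMP, G4/G5 GMP) had 2 arrays, and each array held RNA from a pool of 4 mice, from 5000 to 20000 sorted cells. A spread over pools is therefore smaller than a spread over single mice would be. Pools of a genotype are numbered 1 and 2 for both cell types, and whether the same mice gave the CMP and the GMP of a number was not given in the sources used here.

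SMC proteins pair up into long-armed rings that are closed by a kleisin subunit and driven by ATP. Cohesin holds sister chromatids together from replication to anaphase and extrudes the loops that bring enhancers to promoters. Condensin compacts chromosomes for mitosis, and the SMC5/6 complex acts at stalled replication forks and in recombination, telomeres included. In blood, cohesin genes are recurrent targets of mutation in myeloid leukemia and myelodysplastic syndromes, and lowered cohesin dosage is known to alter the balance of progenitor self-renewal and differentiation.

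All arrays were scaled to one target, with a median signal over probe sets between 14.3 and 18.5 and between 31.6% and 35.2% of probe sets at 50 or more. Tert itself, on its 2 probe sets, stayed between 0.349 and 14.9 on all arrays, under the signal filter of 50, and so did not check the genotype labels. Granulocyte and monocyte progenitor markers (7 of 8 measured) summed to between 6823 and 25429 on CMP arrays and between 31284 and 36104 on GMP arrays. Megakaryocyte and erythroid progenitor markers (8 of 8) summed to between 2744 and 5970.4 on CMP and between 734 and 1452 on GMP arrays, and the ranges of CMP and GMP did not overlap in either list. Progenitor gate markers (Kit, Cd34, Fcgr3 and Fcgr2b, 4 of 5) summed to between 2505 and 4923. This sum joins Kit, higher on all CMP arrays, with Fcgr3 and Fcgr2b, higher on all GMP arrays. Fcgr3 read 38.7 and 83.9 in the G0 CMP pools, 617 and 72.2 in those of G4/G5 CMP, and from 732 to 1457 in GMP. Fcgr2b read 219 and 369, then 807 and 503, and from 1211 to 1577 in GMP. B lymphoid (5 of 6 measured), mature erythroid (2 of 4) and stromal markers (4 of 4) reached sums of at most 217, 21.0 and 169.8 on any array. T and NK markers (3 of 4) summed to between 712 and 1633, and 1 of the 3 reached a signal of 50. One array stood apart. On G4/G5 CMP pool 1, 9 of 9 measured markers of maturing neutrophils reached 50 and their summed signal was 52962, against 170.2 to 305.5 on the other 3 CMP arrays. It lay at -3.62 on the principal component that parted CMP from GMP, with the remaining 3 CMP arrays from -37.8 to -30.7. The members' values in CMP are therefore given with and without this array. In GMP the same markers summed to 28206 and 31105 in G4/G5 against 1458 and 3294 in G0.

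To show what lies upstream of members with unlike behaviour, the 250 bases before the annotated start are printed for Smc2 and Smc5, which differed by about the median of the members or more in G4/G5 CMP, and for Smc3, which differed little. They were chosen after their values were seen, among the 6 of 10 members with a window in the RefSeq table (build GRCm38.p6), and are written 5′ to 3′ on the gene's strand. Capitals mark matches, on either strand, to 4 motifs: the GC box GGGCGG, the CCAAT box CCAAT, the cell cycle genes homology region TTTGAA and the E2F site TTTCCCGC.
Smc2 (chr4:52438971-52439220, plus strand): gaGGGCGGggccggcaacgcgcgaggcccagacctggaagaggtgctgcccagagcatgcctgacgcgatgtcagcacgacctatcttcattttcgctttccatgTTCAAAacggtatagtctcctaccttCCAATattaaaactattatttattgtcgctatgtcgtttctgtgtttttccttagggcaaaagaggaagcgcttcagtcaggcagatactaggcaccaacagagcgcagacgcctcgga
Smc5 (chr19:23272600-23272849, minus strand): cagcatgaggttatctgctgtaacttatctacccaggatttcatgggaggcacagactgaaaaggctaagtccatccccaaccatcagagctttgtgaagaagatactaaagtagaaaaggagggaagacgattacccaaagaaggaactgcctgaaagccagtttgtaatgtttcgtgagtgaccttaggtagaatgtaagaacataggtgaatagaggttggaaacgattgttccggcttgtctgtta
Smc3 (chr19:53600146-53600395, plus strand): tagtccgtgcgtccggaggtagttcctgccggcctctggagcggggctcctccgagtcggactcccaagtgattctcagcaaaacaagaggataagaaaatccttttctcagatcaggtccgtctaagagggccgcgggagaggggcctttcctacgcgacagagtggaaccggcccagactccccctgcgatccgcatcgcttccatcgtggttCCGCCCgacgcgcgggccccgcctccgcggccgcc
The Smc2 window held a GC box, a TTTGAA match and a CCAAT box, starting 248, 145 and 119 bases before the start. The Smc3 window held 1 GC box, 35 bases before the start, and no letters of the 4 motifs were matched in the Smc5 window. The GC content was 51.6%, 43.2% and 64.4% for Smc2, Smc5 and Smc3. Over the 6 member windows, GC boxes were matched in 5, CCAAT boxes in 3, TTTGAA in 2 and the E2F site in 1, that of Stag1. Among all 32851 windows of the same length the shares were 32.7%, 33.8%, 16% and 0.895%. These matches are letters in a sequence, and binding was not measured.

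In CMP, all 10 genes read lower on average in G4/G5 than in G0, where 44.4% of all genes tested did, and 0 of 10 passed the test after adjustment over all genes. The largest differences were those of the cohesin loader Nipbl, at a log2 difference of -0.89, and of Smc5, at -0.87. The condensin core Smc2 and Smc4, the cohesin kleisin Rad21 and Smc6 followed at -0.50, -0.50, -0.48 and -0.44, while the cohesin ring pair Smc1a and Smc3 lay at -0.07 and -0.13. In GMP the members lay between -0.23 and 0.10, and again 0 of 10 passed. Differences are of log2(signal + 10), tested with limma on all 8886 genes past the signal filter, with Benjamini-Hochberg adjusted p under 0.05 as the threshold; adding 10 shrinks the differences of low signals. Among all genes tested, 0.0113% (1 gene, lower) were called in CMP and 0% in GMP. Markers of granulocyte and monocyte progenitors differed in the other direction between the genotypes in CMP: all 7 measured lay higher in G4/G5, by a median log2 difference of 1.29, 5 with an unadjusted p under 0.05 and 0 called. Their summed signal was 6823 and 14410 in the G0 CMP pools and 25429 and 22870 in those of G4/G5 CMP, so it lay higher in both G4/G5 pools and not only in the array of neutrophil markers. Singly, Elane, Mpo, Prtn3, Ctsg and Csf1r also lay higher in both G4/G5 pools. Ms4a3 overlapped, at 538 and 300 against 2623 and 445, and so did Irf8, at 248 and 662 against 593 and 1005. The part of this shift of markers in the members' values was not tested. These are bulk measurements, so fewer cells of a type and less RNA per cell cannot be told apart.

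**Figure D1:**
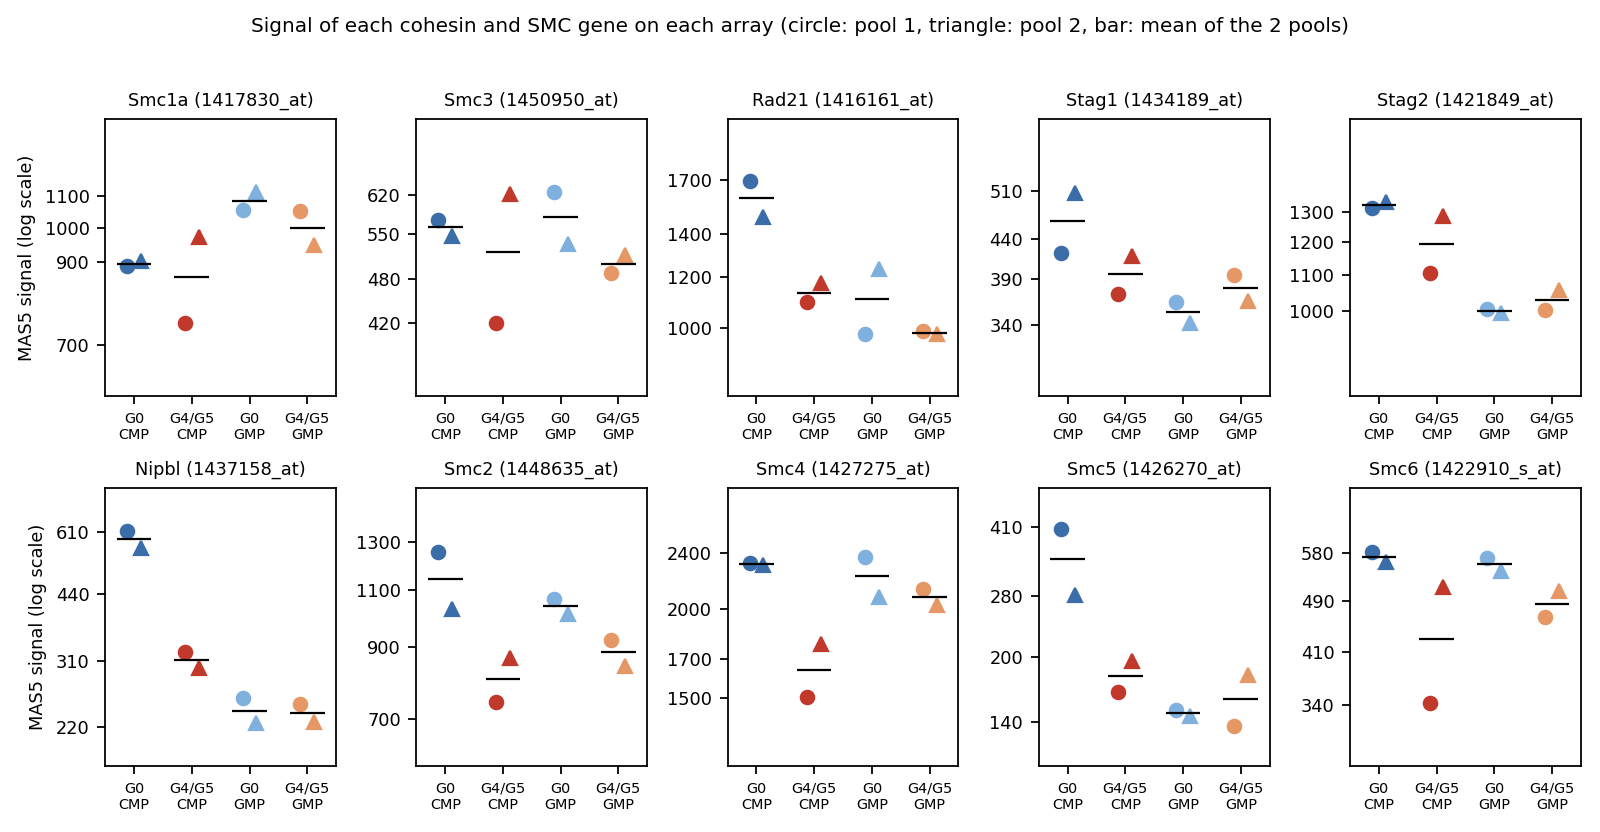
MAS5 signal (log axis, a separate scale per panel) of the probe set standing for each gene, on each array; circles are pool 1, triangles pool 2 and bars the mean of the 2 pools in each of the 4 groups. G0 CMP has the highest mean for 8 of 10 genes, and for Nipbl, Smc5, Rad21, Stag1 and Stag2 both G0 CMP arrays lie above the 6 others.

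The ring of cohesin is formed by Smc1a, Smc3 and Rad21. Rad21, the subunit cleaved by separase at anaphase, read 1696 and 1493 in the G0 CMP pools and 1098 and 1175 in the G4/G5 CMP pools. In GMP it read 981 and 1239 with G0, against 991 and 979.7 with G4/G5. Both G4/G5 CMP arrays lay below both G0 CMP arrays, and all GMP arrays lay below G0 CMP, with the G4/G5 CMP arrays within the G0 GMP range. The log2 difference between genotypes in CMP was -0.48 ± 0.14 (SE, n = 2 pools a group; limma, adjusted p = 0.288) and -0.43 with G4/G5 CMP pool 1 left out. A further probe set, 1455938_x_at, gave -0.75 ± 0.20 (-0.93 with G4/G5 CMP pool 1 left out). On 1416162_at the G4/G5 CMP pools read 121 and 73.9, and the difference was -0.20 ± 0.23 and -0.53 with the first of them left out.

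Smc1a, the X-linked SMC subunit of cohesin, read 889 and 903 in the G0 CMP pools and 748 and 972 in those of G4/G5 CMP on its brightest probe set (1417830_at). Its GMP signals were 1054 and 1115 with G0, against 1051 and 947 with G4/G5. The genotypes overlapped in CMP, and the log2 difference was -0.07 ± 0.15 (limma, adjusted p = 0.869). The other probe sets of Smc1a gave another picture. On 1417832_at the signal was 253 and 208 in the G0 CMP pools and 85.8 and 122 in those of G4/G5 CMP. On 1417831_at it was 194 and 170.0 against 50.8 and 79.9. Neither pair of groups overlapped, and the log2 differences were -1.09 ± 0.19 and -1.37 ± 0.26, the latter the lowest of all 35 member probe sets (limma over 14743 probe sets, adjusted p = 0.117 and 0.144). With G4/G5 CMP pool 1 left out they were -0.85 and -1.09, whereas 1417830_at moved to 0.12. In GMP the same 2 probe sets lay at -0.60 ± 0.19 and -0.60 ± 0.26, with no overlap between genotypes, and 1417830_at at -0.12 ± 0.15. Which transcript forms each probe set reads was not given in the sources used here, and the probe sets disagree on the size of the difference. With the mean over a gene's probe sets in place of the brightest, the Smc1a difference in CMP was -0.84 (adjusted p = 0.207).

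Smc3, the partner of Smc1a in the ring, read 575 and 548 in the G0 CMP pools and 421 and 621 in those of G4/G5 CMP. In GMP the signal was 625 and 533 with G0, against 489 and 516 with G4/G5. The G4/G5 CMP pools lay on either side of both G0 pools, so the direction rested on a single array: the log2 difference was -0.13 ± 0.19 (limma, adjusted p = 0.800) and 0.14 with G4/G5 CMP pool 1 left out. In GMP the groups did not overlap, at -0.20 ± 0.19 (adjusted p = 0.792), whereas the dimmer probe set 1450951_at lay the other way, at 0.32 ± 0.23.

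Stag1 and Stag2 encode the alternative HEAT-repeat subunits that bind the ring and contact its regulators, and Stag2 is the member most often mutated in myeloid neoplasms. In CMP, Stag2 read 1316 and 1335 with the G0 genotype and 1105 and 1285 with the G4/G5 genotype. In GMP it read 1005 and 995 with G0, against 1001 and 1058 with G4/G5. All GMP arrays lay below all CMP arrays. The genotype difference in CMP was -0.15 ± 0.12 (limma, adjusted p = 0.615), and -0.04 with G4/G5 CMP pool 1 left out. The dimmer probe set 1450396_at read 287 and 195 in the G0 CMP pools and 204 and 160 in those of G4/G5 CMP, a difference of -0.38. Its lower G4/G5 CMP array was pool 2, so its difference grew with pool 1 left out. In GMP this probe set lay higher in G4/G5 with no overlap, at 0.41. Stag1 read 423 and 507 in the G0 CMP pools and 373 and 419 in those of G4/G5 CMP. Its GMP signals were 364 and 342 with G0, against 395 and 365 with G4/G5. Its difference was -0.22 ± 0.14 in CMP (adjusted p = 0.529; -0.14 with G4/G5 CMP pool 1 left out) and 0.10 ± 0.14 in GMP. Of its 6 probe sets 1421940_at was tested only through the G0 CMP arrays, which alone read it above 50. The other 5 lay between -0.82 and -0.15 in CMP, the lowest being 1431921_a_at, with 496 and 452 with G0, against 221 and 315 with G4/G5 (-0.82 ± 0.18, adjusted p = 0.166 over probe sets). With G4/G5 CMP pool 1 left out it gave -0.57, and 1441724_at turned from -0.15 to 0.02.

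Nipbl encodes the protein that loads cohesin on DNA and stimulates its ATPase. Its brightest probe set, 1437158_at, read 612 and 561 in the G0 CMP pools and 325 and 299 in those of G4/G5 CMP, and in GMP 255 and 224 with G0, against 247 and 226 with G4/G5. The genotypes overlapped in GMP, and G4/G5 CMP stood between GMP and G0 CMP without overlapping either. The difference in CMP was -0.89 ± 0.14 (95% interval -1.21 to -0.57; limma, adjusted p = 0.124), rank 12 of 8886 by p, and -0.95 with G4/G5 CMP pool 1 left out (adjusted p = 0.202). It passed when G0 CMP pool 2 or G4/G5 CMP pool 2 was left out, each a fit with 1 array left in that group. For G4/G5 CMP the array left was that of neutrophil markers. The other tested probe sets of Nipbl did not share the size of this difference: 1430309_at read 354 and 536 in the G0 CMP pools and 323 and 457 in those of G4/G5 CMP. It gave -0.18 ± 0.22, turning to 0.07 with G4/G5 CMP pool 1 left out. 1453576_at read 353 and 356 in G0 CMP, against 278 and 406 in G4/G5 CMP, and with the same array left out its difference turned from -0.08 ± 0.18 to 0.19. The dim 1442103_at gave -0.15 ± 0.23, and -0.22 without that array. The mean over the tested probe sets gave -0.32 (limma, adjusted p = 0.350).

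The condensin core pair differed by similar amounts. Smc2 read 1254 and 1026 in the G0 CMP pools and 741 and 866 in those of G4/G5 CMP. In GMP it read 1064 and 1011 with G0, against 922 and 843 with G4/G5. Neither cell type had overlapping genotypes, with differences of -0.50 ± 0.14 in CMP (limma, adjusted p = 0.277; -0.39 with G4/G5 CMP pool 1 left out) and -0.23 ± 0.14 in GMP (adjusted p = 0.684). The other 4 probe sets of Smc2 gave larger differences in CMP, from -1.09 ± 0.24 to -0.90 ± 0.22, and from -0.96 to -0.82 with G4/G5 CMP pool 1 left out. The smallest adjusted p over probe sets was 0.111, for 1429660_s_at, which read 438 and 329 in the G0 CMP pools and 178 and 191 in those of G4/G5 CMP.

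Smc4, the other ATPase of condensin, read 2327 and 2309 in the G0 CMP pools and 1502 and 1785 in those of G4/G5 CMP. In GMP the pools read 2368 and 2080.1 with G0, against 2134 and 2029.6 with G4/G5, with overlap. G4/G5 CMP was thus the one group in which both arrays lay below all others. The difference in CMP was -0.50 ± 0.13 (limma, adjusted p = 0.250), and -0.38 with G4/G5 CMP pool 1 left out. With pool 2 left out it was -0.62 and passed, but G4/G5 CMP then held only the array of neutrophil markers. The other probe sets of Smc4 gave -0.62 ± 0.16 (1427276_at) and -0.18 ± 0.12 (1452197_at), or -0.49 and -0.11 without pool 1.

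Smc5 and Smc6 form the core of the SMC5/6 complex. In CMP, Smc5 read 405 and 282 with the G0 genotype and 166 and 196 with the G4/G5 genotype. In GMP it read 150.0 and 145 with G0, against 138 and 181 with G4/G5. The G0 CMP pools were the 2 highest arrays, and also the pair of pools that differed most from each other. The difference in CMP was -0.87 ± 0.21 (95% interval -1.35 to -0.39; limma, adjusted p = 0.239), -0.76 with G4/G5 CMP pool 1 left out and -0.62 without G0 CMP pool 1. The dimmer probe set of Smc5 (1426271_at) gave a smaller difference of -0.32 ± 0.17 (-0.37 without pool 1). Smc6 read 582 and 562 in the G0 CMP pools and 343 and 514 in those of G4/G5 CMP. Its difference of -0.44 ± 0.18 (limma, adjusted p = 0.364) lay mostly in 1 array: it was -0.15 with G4/G5 CMP pool 1 left out. Without pool 2 it was -0.72 and passed, but G4/G5 CMP then held only the array of neutrophil markers. In GMP Smc6 read 569.7 and 545 with G0, against 464 and 507 with G4/G5, a difference of -0.20 ± 0.18. Its probe sets 1417736_at, 1448828_at and 1448829_at gave -0.70, -0.23 and -0.18 in CMP. In GMP they lay at -0.28, -0.45 and 0.15, so they disagreed on the direction there. The dim 1422909_at, at 50 or more on 2 arrays only, is left aside.

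**Figure D2:**
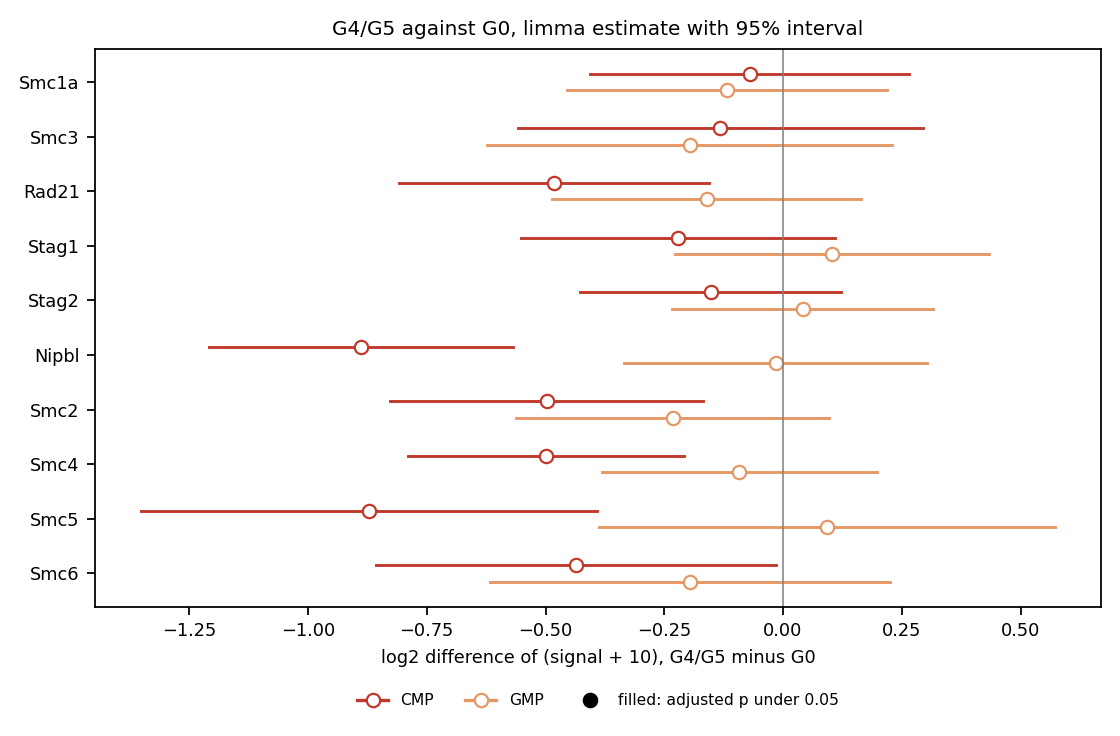
Estimated log2 difference between G4/G5 and G0 for each gene in CMP (red) and GMP (orange), with the 95% interval from limma; open points did not pass an adjusted p of 0.05. All 10 CMP estimates lie below 0 and none of the 20 points is filled.

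Read over the whole set, 6 of 10 genes had an unadjusted p under 0.05 in the lower direction in CMP, where 4.72% of all genes did and 8.72% had one in the higher direction. In 8 of 10 both G4/G5 arrays lay below both G0 arrays, where 14.9% of all genes did (21.7% lay higher in this way). The median of the 10 differences was -0.46, beside 0.04 over all genes tested. With G4/G5 CMP pool 1 left out the median was -0.26 with 8 of 10 below 0, and with G4/G5 CMP pool 2 left out it was -0.57. The share of all genes below 0 in such a fit is not given here, so the count is a description. Between the G4/G5 CMP pools, 9 of 10 genes read lower in pool 1, by a median log2 value of 0.23 over the members. The summed neutrophil markers were 52962 on pool 1 and 170.2 on pool 2. On their brightest probe sets, Nipbl, Smc5, Rad21, Smc2 and Smc4 kept differences of -0.38 or lower without the array that carries these markers. Smc1a, Smc3, Stag2, Stag1 and Smc6 came to lie between -0.15 and 0.14. This division depended on the probe set: without that array the other tested probe sets of Nipbl lay above -0.38 and those of Smc1a below it, as given above. Some probe sets of Stag1, Stag2, Smc4 and Smc5 also fell on the other side of it. The part of neutrophil RNA in the lower values of pool 1 itself was not tested.

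At the level of probe sets, all 35 lay below 0 in CMP, beside 50.3% of all tested probe sets. Of the 35, 17 had an unadjusted p under 0.05, beside 6.97% lower over all probe sets, and 26 had no overlap between genotypes, beside 18.5%. These counts include 3 dim probe sets (Stag1 1421940_at, Smc2 1458479_at and Smc6 1422909_at) that reached the signal filter only with the help of the G0 CMP arrays, so that their direction follows from the filter. Of the remaining 32, all lay below 0, 16 had an unadjusted p under 0.05 and 24 had no overlap. After adjustment over the 14743 probe sets 0 of 35 passed (0.0203% of all passed lower). With G4/G5 CMP pool 1 left out, 29 of 35 lay below 0, and the share of all probe sets in that fit is not given here. Probe sets of one gene read the same RNA and are not replicates of each other.

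**Figure D3:**
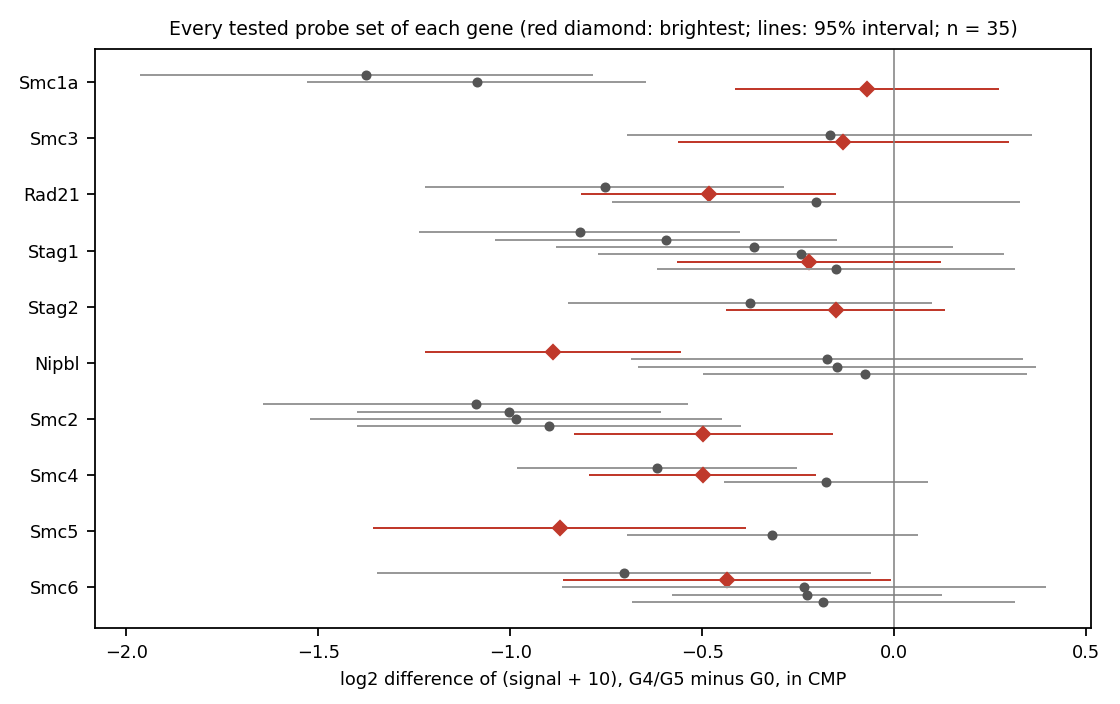
Log2 difference between G4/G5 and G0 in CMP for all 35 tested probe sets, grouped by gene, with 95% intervals; the red diamond is the brightest probe set, which stands for the gene. For Smc1a the brightest lies at -0.07 and the others at -1.09 and -1.37, while for Nipbl the brightest lies at -0.89 and the others between -0.18 and -0.08.

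In GMP, 7 of 10 genes lay below 0, where 49.1% of all genes did, and the median was -0.11, beside 0.01 over all genes. No member had an unadjusted p under 0.05, where 7.87% of all genes did in either direction (3.26% lower and 4.6% higher). Of the members, 4 (Smc1a, Smc3, Smc2 and Smc6) lay lower and 1 (Stag1) higher with no overlap, against 26.5% and 28.8% of all genes. Of the 35 probe sets 23 lay below 0, and 4 had an unadjusted p under 0.05, all lower, against 3.36% of all probe sets lower. The summed neutrophil markers also differed between the genotypes in GMP, as given above, and megakaryocyte and erythroid progenitor markers lay lower in G4/G5 GMP for 8 of 8, by a median log2 difference of -0.69 with 0 called. The part of either in these values was not tested. Averaged over both cell types, 0 of 10 members passed (0.0338% of all genes did, 0.0225% lower). All 10 lay below 0, where 46.1% of all genes did, and 6 had an unadjusted p under 0.05, all lower, against 6.65% lower and 11.2% higher over all genes. The median was -0.31, and the lowest values were those of Nipbl (-0.45 ± 0.10, limma, adjusted p = 0.167) and Smc5 (-0.39 ± 0.15, adjusted p = 0.241). The difference between the genotype effects in the 2 cell types was tested as an interaction and called 0 of 10 members (0% of all genes), so the larger values in CMP were not shown to differ from those in GMP. Of the members, 2 lay below 0 (54.9% of all genes did), and 2 had an unadjusted p under 0.05, both higher (3.97% of all genes did, 1.51% higher and 2.46% lower). Its largest estimates, GMP minus CMP, were those of Smc5 (0.96 ± 0.30) and Nipbl (0.87 ± 0.20), both with an adjusted p of 0.994. With G4/G5 CMP pool 1 left out, 0 members passed in either test, and these interaction estimates were 0.85 for Smc5 and 0.93 for Nipbl (limma, adjusted p = 0.565 and 0.440).

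Between the cell types of G0 mice, 4 of 10 members fell from CMP to GMP, where 20.8% of all genes were called and 10.2% were called lower. In all, 8 of 10 lay below 0, against 51.3% of all genes, and with no overlap 5 lay lower and 1 higher, against 33.1% and 32.2%. Nipbl fell by 1.26 ± 0.14 (SE) on the log2 scale (limma, adjusted p = 0.00227), from 612 and 561 to 255 and 224. Smc5 fell by 1.14 ± 0.21 (adjusted p = 0.0103), from 405 and 282 to 150.0 and 145. Rad21 fell by 0.53 ± 0.14 (adjusted p = 0.0351) and Stag2 by 0.40 ± 0.12 (adjusted p = 0.0465), in each case with no overlap. Stag1 lay lower by a similar amount to Stag2 and missed the threshold (-0.38 ± 0.14, adjusted p = 0.0935), which it passed with the mean over its probe sets (-0.46, adjusted p = 0.0494). The ring ATPase Smc1a lay higher in GMP (0.27 ± 0.15, adjusted p = 0.216), and Smc3, Smc2, Smc4 and Smc6 lay between -0.13 and 0.04, each with overlap between the cell types. The cohesin members that fell were the loader, the kleisin and a STAG subunit; differences between members were not tested.

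The calls for Rad21 and Stag2 were close to the threshold. With any G0 array or any G4/G5 GMP array left out, Rad21 missed it (adjusted p from 0.0544 to 0.252) and so did Stag2 (0.0861 to 0.214), and Smc5 missed it without G0 GMP pool 1 or 2 (0.0944 and 0.0626). Nipbl passed with each of the 8 arrays left out in turn. Over probe sets, 7 of 35 fell, against 10.3% of all probe sets, and they were of 5 genes: 3 of 4 for Nipbl, and 1 each for Smc5, Rad21, Stag1 and Stag2. One of them, Nipbl 1442103_at, reached the signal filter only on CMP arrays, and 6 of 7 did not depend on it in this way. With the pool number as a block within cell type, 12 of 35 fell, the added 5 being 1 each of Stag1, Stag2, Nipbl, Smc2 and Smc5. The share of all probe sets called with the block is not given here, so that count is a description. Among the 7 called without the block, that of Stag2 was the dimmer 1450396_at, from 287 and 195 to 129 and 129 (-0.83 ± 0.21, limma, adjusted p = 0.0271). The brightest of Stag2 just missed (0.0529). That of Stag1 among the 7 was 1450420_at, from 201 and 201 to 112 and 89.3 (-0.94 ± 0.19, adjusted p = 0.0152). Leaving aside the 5 of 35 probe sets that reached the filter only through CMP arrays, 18 of the remaining 30 lay lower in GMP with no overlap. Over all tested probe sets, 35.7% did. Among the 18 were all the remaining ones of Rad21, Stag1, Stag2, Nipbl and Smc5.

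In G4/G5 mice 0 of 10 members were called between GMP and CMP, where 10.5% of all genes were, 6.29% lower and 4.18% higher. Of the 10, 6 lay below 0, against 53.7% of all genes. Nipbl lay lower in GMP (-0.39 ± 0.14, limma, adjusted p = 0.111) and Smc4 higher (0.34 ± 0.13, adjusted p = 0.115). With the array of neutrophil markers (G4/G5 CMP pool 1) left out, they lay at -0.33 and 0.22, and again 0 of 10 were called. Over probe sets 0 of 35 were called, or 1 (Nipbl 1430309_at, -0.50, adjusted p = 0.0441) with the pool number as a block within cell type. With no overlap, 3 members lay lower and 1 higher, against 33% and 27.7% of all genes. The comparison in G0 and the genotype comparison in CMP share the G0 CMP arrays, so a high G0 CMP signal enters both. Nipbl had -1.26 and -0.89 in the 2, Smc5 -1.14 and -0.87, Rad21 -0.53 and -0.48, and Smc2 -0.13 and -0.50.

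**Figure D4:**
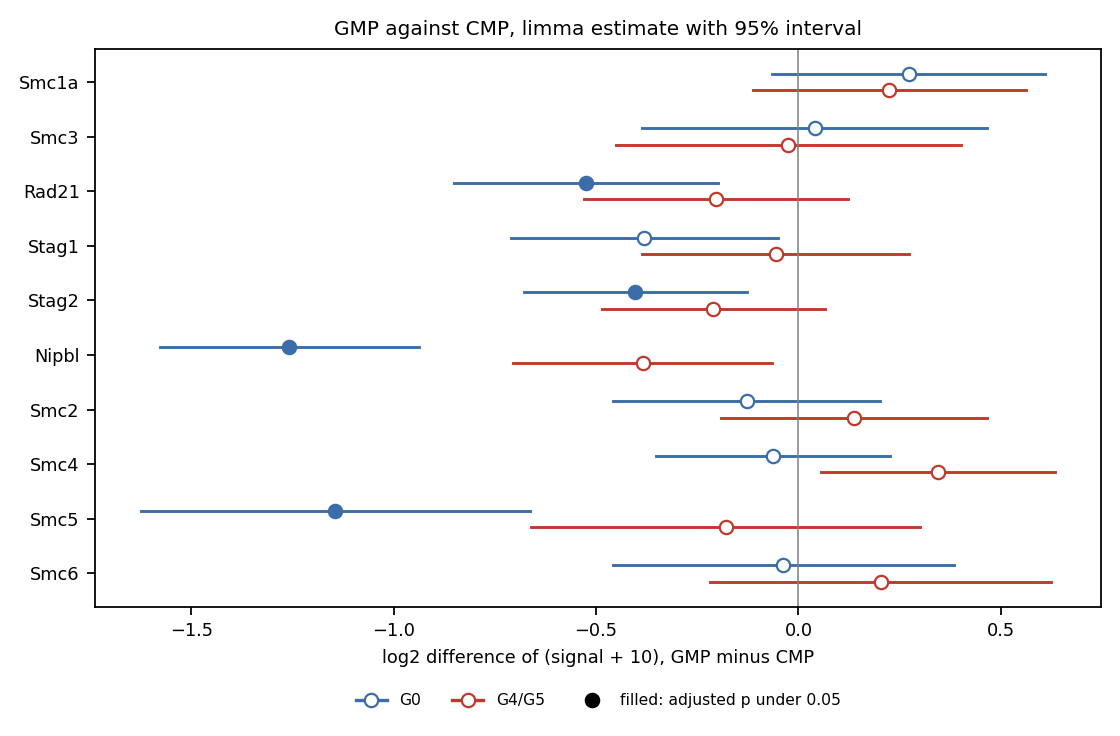
Estimated log2 difference between GMP and CMP for each gene in G0 (blue) and G4/G5 mice (red), with the 95% interval from limma; filled points passed an adjusted p of 0.05. In G0, Nipbl, Smc5, Rad21 and Stag2 are filled and lie below 0, and in G4/G5 none is filled.

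The order of the group means shows 2 patterns within the set. For Rad21, Stag1, Stag2, Nipbl and Smc5, G0 CMP was highest, G4/G5 CMP next and both GMP groups lowest. The ratio of the highest to the lowest group mean was 2.48 for Nipbl, 2.33 for Smc5, 1.62 for Rad21, 1.33 for Stag2 and 1.32 for Stag1. For Smc2, Smc4 and Smc6, G0 CMP was again highest, followed by G0 GMP and G4/G5 GMP, with G4/G5 CMP lowest, at ratios of 1.42, 1.41 and 1.33. Smc1a and Smc3 were highest in G0 GMP, at 1.26 and 1.15. Neighbours in these orders overlapped in many cases: the 2 GMP groups of Nipbl, Smc5, Stag2, Rad21 and Smc4, and G0 CMP and G0 GMP of Smc2, Smc4, Smc6 and Smc3. G4/G5 CMP, whose place sets the 2 patterns apart, also overlapped the GMP group next to it for Rad21, Stag1, Smc5, Smc2 and Smc6. It did not for Nipbl, Stag2 and Smc4. Over the 35 probe sets, G0 CMP had the highest mean for 30, and G4/G5 CMP had the lowest for 15. The single lowest array was G4/G5 CMP pool 1 for 16 of 35.

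**Figure D5:**
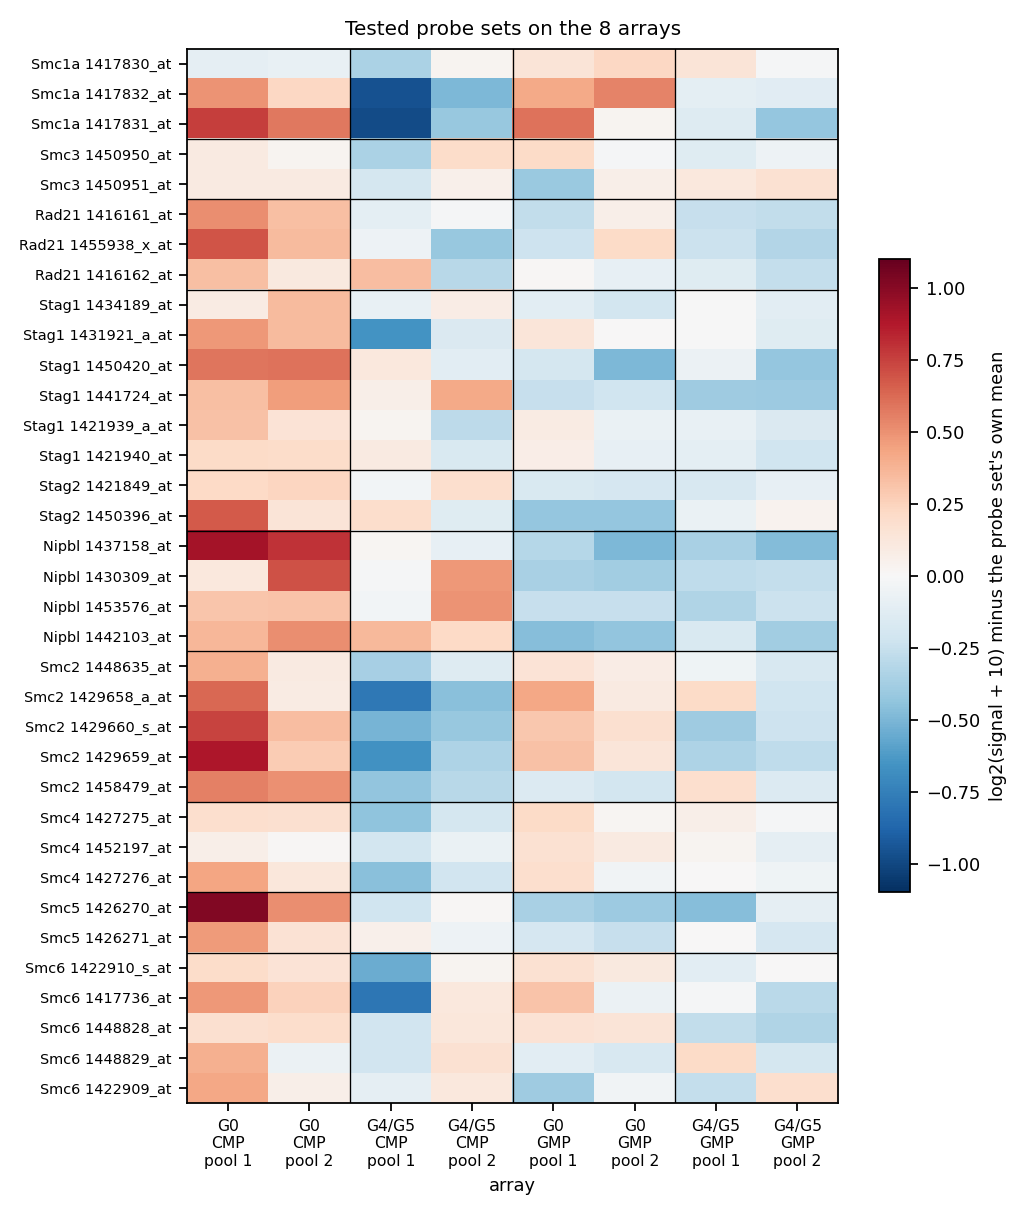
Log2(signal + 10) minus the probe set's own mean over the 8 arrays, for the 35 tested probe sets (rows, grouped by gene) on each array (columns). The G0 CMP columns are mostly above the mean, and the darkest low values, in Smc1a, Smc2, Stag1 and Smc6, fall on G4/G5 CMP pool 1.

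Across the 8 arrays the closest pair of members was Nipbl and Smc5 (Pearson r = 0.92), followed by Rad21 with Smc5 and with Nipbl (both 0.88). Smc4 went with Smc6 (0.87) and Smc2 (0.86), while Smc1a and Nipbl ran opposite (-0.52). The arrays share groups, so these values describe the group pattern over 8 arrays and carry no test. Of the genes outside the set, the closest in pattern to Nipbl were Slfn10-ps (r = 0.98), Top2b (0.98) and Map3k2 (0.97). For Smc2 they were Ssb (0.99), Dscc1 (0.98) and Dhx15 (0.98), and for Rad21 Zeb2 (0.99), Serf1 (0.98) and Nck2 (0.97). For Smc5 they were Taf1 (0.96), Dennd1b (0.96) and Zfp748 (0.96), for Smc4 Birc6 (0.97), Ppip5k2 (0.96) and Dhx36 (0.96), and for Smc6 Zbtb12 (0.98), Tpm2 (0.97) and Cbx5 (0.97). For Stag2 they were Rfx7 (0.99), Gm20199 (0.99) and Dlg1 (0.99), for Stag1 Nedd1, Rtl6 and Hnrnpul1 (each 0.95), for Smc1a Baz1b (0.97), Immt and Eme1 (each 0.96), and for Smc3 Csnk2a2, Zap70 and Slc38a1 (each 0.95).

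Partners of these complexes were read from lists. Of 15 cohesin regulators, 13 were tested, and 0 passed between genotypes in CMP; 10 lay below 0, with a median of -0.21 (9 and -0.11 with G4/G5 CMP pool 1 left out). Dscc1, part of an alternative clamp loader needed for cohesion, read 288 and 227 in the G0 CMP pools and 149 and 187 in those of G4/G5 CMP (-0.59 ± 0.17, limma, adjusted p = 0.279), and -0.44 without that array. Pttg1, the securin that restrains separase, lay the other way (0.32 ± 0.17, adjusted p = 0.446; 0.11 without it). In GMP 9 of 13 lay below 0 and 0 passed, the smallest adjusted p (limma) being that of the cohesin acetyltransferase Esco2 (-0.53 ± 0.24, 0.633). Its paralog Esco1 (0.30 ± 0.16) and the helicase Ddx11 (-0.34 ± 0.18) shared the next, at 0.645.

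Between the cell types of G0 mice 3 of the 13 regulators passed, beside 20.8% of all genes, so the count lay near the share of all genes. With the pool number as a block within cell type Mau2, the partner of Nipbl in loading, passed too (-0.66, adjusted p = 0.0470, against 0.0804 without the block). Pds5b, which binds cohesin beside Wapl, fell by 0.79 ± 0.22 (limma, adjusted p = 0.0381), from 486 and 457 in CMP to 285 and 253 in GMP. Wapl, the factor that releases cohesin from chromatin, fell by 0.45 ± 0.14 (adjusted p = 0.0469), from 631 and 536 to 423 and 422. Cdca5, or sororin, which protects cohesion against Wapl, rose by 0.66 ± 0.15 (adjusted p = 0.0186), from 559 and 583 to 948 and 876. The falls of Pds5b and Wapl missed the threshold with any G0 or G4/G5 GMP array left out (adjusted p from 0.0645 to 0.172 and from 0.0504 to 0.218), and Cdca5 with any G0 array left out (0.0508 to 0.154). In G4/G5 mice 0 of the 13 passed, with Pds5b at -0.64 ± 0.22 (adjusted p = 0.0991) and Cdca5 at 0.41 ± 0.15 (0.107).

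All 6 non-SMC subunits of condensin were tested. In CMP 5 of 6 lay below 0 between genotypes, with a median of -0.29 (-0.16 with G4/G5 CMP pool 1 left out), and 0 passed. Ncaph, the kleisin of condensin I, read 589.7 and 505 in the G0 CMP pools and 400.3 and 405 in those of G4/G5 CMP (-0.43 ± 0.13, limma, adjusted p = 0.295; -0.42 without pool 1). Ncapg2, a HEAT-repeat subunit of condensin II, read 760.0 and 587 against 440.4 and 421 (-0.62 ± 0.21, adjusted p = 0.312; -0.65 without pool 1). In GMP all 6 lay below 0, with a median of -0.12, and 0 passed, Ncapg of condensin I having the smallest adjusted p (-0.42 ± 0.16, 0.595) before Ncaph (-0.26 ± 0.13, 0.638). Between cell types 0 of 6 passed in G0. In G4/G5 Ncapg2 rose from 440.4 and 421 in CMP to 929 and 604 in GMP (0.79 ± 0.21, adjusted p = 0.0492), the 1 of 6 called beside 10.5% of all genes; it missed the threshold with any GMP array or any G4/G5 CMP array left out (adjusted p from 0.0614 to 0.336).

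Of 7 non-SMC subunits and partners of SMC5/6, 6 were tested, and 0 passed in any of the 6 comparisons. Their median was -0.03 between genotypes in CMP and 0.00 in GMP, beside 0.04 and 0.01 over all genes. Slf2 and Slf1, which link the complex to sites of damage, had the smallest adjusted p in CMP (-0.22 ± 0.13, limma, 0.492, and -0.27 ± 0.18, 0.546), and lay at -0.22 and -0.11 without pool 1. Slf2 came closest between cell types in G0 (-0.36 ± 0.13, adjusted p = 0.0795), and Nsmce2, the SUMO ligase of the complex, in G4/G5 (0.45 ± 0.13, adjusted p = 0.0624). Of 5 germline cohesin genes 4 had a probe set and 2 were tested, Rec8 and Sgo2a, with 0 passing. Rec8, the meiotic kleisin, reached the signal filter only through the G4/G5 CMP arrays, at 102 and 52.9, and read between 2.75 and 48.8 on the others, so its difference follows from the filter and is not given as a test. Sgo2a, a shugoshin that guards centromeric cohesion, had 0.13 ± 0.22 in CMP (limma, adjusted p = 0.837; 0.35 without pool 1).

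Since condensin and cohesin genes are cell cycle genes in part, a proliferation list of 18 genes was read beside them, of which 17 were tested. In CMP its median was -0.10 with 10 of 17 below 0 (-0.03 with G4/G5 CMP pool 1 left out), beside -0.46 for the SMC members, and in GMP -0.28 with 16 of 17 below 0, beside -0.11. These differences between lists were not tested, and the part of proliferation in the members' values was not tested. The proliferation marker Mki67 read 2150.4 and 1894 in the G0 CMP pools and 1358 and 1769 in those of G4/G5 CMP (-0.38 ± 0.16, limma, adjusted p = 0.359), and without pool 1, its lower array, the difference was -0.19. The topoisomerase Top2a, which works with condensin on mitotic chromosomes, had -0.26 ± 0.15 in CMP (adjusted p = 0.494; -0.03 without pool 1) and -0.40 ± 0.15 in GMP (0.603). Between cell types in G0, 6 of 17 rose, where 10.6% of all genes were called higher, and none of the SMC members did.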

How the data were processed

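Per the labels and the series text, RNA of sorted cells was extracted with Trizol, from 5 to 10 ng was amplified and labelled with biotin, and Affymetrix whole-genome mouse arrays were hybridised. The deposited values are probe-set intensities on a linear scale, which the authors computed with MAS5, per the submitters' processing notes, scaled to a target of 100, per the series text; an annotation build was not given in the sources used here. With the top and bottom 2% of probe sets removed, each array averaged 100.0. MAS5 values carry no read depth, and 2 arrays a group limit the precision.

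Of 45101 probe sets, 34945 had a single gene symbol in the platform annotation, 932 several and 9160 none (64 of the table were control probe sets); 34741 matched a gene ID of the reference table, which updated 0 symbols. Each gene was read from its brightest probe set by mean signal. Genes with a signal of 50 or more on at least 2 arrays (8886 of 18193) were fitted on log2(signal + 10) with limma 3.58.1 in R 4.3.3, as 4 group means over 8 arrays (4 residual degrees of freedom) with an intensity trend; p-values were adjusted by Benjamini-Hochberg over all genes, for 6 comparisons. The same fit was run on 14743 probe sets. The fit was run on simulated data with the same spread for all genes, which does not test the intensity trend or an outlying array. Where a lone array was left in a group, it was assumed to vary like the others.

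The members and the gene lists (cohesin regulators, germline cohesin, condensin and SMC5/6 partners, proliferation, 8 marker lists) were chosen with earlier results of these data known. All members are named; list genes are named where they passed or, if none passed, by the 2 smallest adjusted p (Mki67 and Top2a in the proliferation list), and for each member the 3 genes with the highest correlation over the arrays. Arrays within a group are separate pools of mice, so p-values measure the spread between pools. The series text pairs the G0 and the G4/G5 pool of the same number within a cell type, matched for age and sex; deviations of these stated pairs from the group means correlated at 0.25 in CMP and 0.14 in GMP. The fit without the pool number was kept as the main one, and values with it as a block are given where they change a call. Alternatives tried were other pseudocounts, filters, normalizations, probe set choices, blocks, arrays and variance settings.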

Additional observations from a re-analysis of the deposited data

How the results depend on the processing

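No result named here changed sign past the threshold in any alternative. Of the 10 members 0 passed between genotypes in CMP in every alternative but 2. Those 2 omitted the second G0 CMP pool or the second G4/G5 CMP pool, leaving 1 array in that group. In G4/G5 CMP the array left was that of neutrophil markers. For the mean over cell types, members passed only with the second G4/G5 CMP pool omitted. The highest probe set counts in CMP and for the mean, given below, also came with that pool omitted. For GMP against CMP in G0 the 4 calls became 2 with no signal filter, 2 on the arrays compared alone, 2 without the intensity trend and from 1 to 4 with an array left out. Over member probe sets the counts with an array left out ran from 0 to 9 in CMP, 0 to 11 for the mean, 1 to 12 for GMP against CMP in G0 and 0 to 2 in G4/G5. Of the 7 probe sets called in G0, the count was 3 with no signal filter, and 2 passed between genotypes in GMP on the GMP arrays alone. With the pool number as a replicate block within cell type, 12 member probe sets passed in G0 and 1 in G4/G5; among members it changed no other call, and over all genes it gave 2 calls in place of 1 between genotypes in CMP, 1 in place of 3 for the mean and 1465 in place of 930 between cell types in G4/G5. The share of all probe sets called with the block is not given here, and the cause of these shifts was not tested. Pseudocount, quantile normalization and median centring left all 10 CMP differences below 0; Stag2 in G0 missed the threshold with median centring (adjusted p = 0.0646) and Rad21 with the mean over probe sets (0.0859), under which Stag1 passed (0.0494). Arrays with 2 pools a group leave wide intervals: the 95% interval of a member spans from 0.55 to 0.96 log2 units in CMP, and signals near or under 50, as on the dimmest probe sets of Smc2, Smc3, Smc6, Stag1 and Nipbl, are the least precise.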
